A study of Mus musculus with 9 samples.

Results

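The striatal RNA of 6 mice given a dopamine toxin, 3 with methamphetamine (METH) and 3 with MPTP, was compared as 1 group with that of 3 mice given saline. Arrays were assigned by their titles, METH 1 to 3 and MPTP 1 to 3 on one side and Control 1 to 3 on the other, so the comparison used all 9 arrays of the series. Every mouse was a male C57BL/6J of 56 days, and the sample was the left and right striatum. The labels name no genetic change in any group, and the series' design text speaks of 3 biological replicates per condition. How much of each toxin was given, how often, and how long before dissection was not stated in any source used for this comparison.

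The striatum receives dopamine from nerve terminals whose cell bodies lie in the midbrain, so most transcripts of the dopamine neurons themselves are made outside the tissue sampled. METH releases dopamine from these terminals and at high dose damages them. MPTP is converted, largely in glia, to an ion that enters dopamine neurons through their transporter and blocks respiratory complex I. Injury of the terminals is known to be followed by reactive gliosis, in which astrocytes make more of the intermediate filament protein GFAP and microglia, the resident macrophages of the brain, alter their shape and gene expression.

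Each array gave a linear signal for 22690 probe sets, and 7964 of 12393 named genes were bright enough to enter the test. All arrays had the same trimmed mean signal, 2501, with 2% left out at each end, while the array medians ran from 1110.5 to 1127 in control and from 1127 to 1233 in the toxin group, without overlap. Spearman correlations between arrays were 0.970 to 0.985. The 3' to 5' signal ratio of Gapdh, which tracks RNA integrity, was 0.828 to 0.858 in control and 0.732 to 0.840 in the toxin group. For the transferrin receptor this ratio was 2.20 to 2.81 in control and 2.25 to 3.73 in the toxin group. It was 2.46 to 3.38 in control and 1.42 to 2.95 in the toxin group for pyruvate carboxylase. The beta actin ratio was 1.07 to 1.21 in control and 1.08 to 1.17 in the toxin group. Gfap passed also with the arrays centred on their medians, while the part of RNA integrity in the results was not tested. Of the spiny neuron genes used to check the tissue, Ppp1r1b, Drd2, Penk, Tac1, Rgs9 and Pde10a lay at the 97.2th to 99.9th percentile of mean signal. Whole striatum mixes many cell types, so more or fewer cells of a type and more or less RNA per cell cannot be told apart in any value given here.

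Gfap was the gene that passed the test, and both toxins carried the difference about equally. Its promoter is shown first because the gene carries the main result, and those of 3 further genes follow as examples of the gene groups described afterwards: Irgm1, a GTPase induced by interferon, Ctss, a lysosomal protease of microglia, and Dusp1, an immediate early phosphatase. Each sequence is the 250 bases before the annotated start in RefSeq, build GRCm38.p6, read 5′ to 3′ on the strand of the gene. Capitals mark matches, on either strand, to 4 motifs: the core of the interferon-stimulated response element, which is GAAA, any 2 bases and GAAA again, the STAT site TTCNNNGAA, the cyclic AMP response element TGACGTCA and the TATA box TATAAA.
Gfap, chr11:102897201-102897450, minus strand: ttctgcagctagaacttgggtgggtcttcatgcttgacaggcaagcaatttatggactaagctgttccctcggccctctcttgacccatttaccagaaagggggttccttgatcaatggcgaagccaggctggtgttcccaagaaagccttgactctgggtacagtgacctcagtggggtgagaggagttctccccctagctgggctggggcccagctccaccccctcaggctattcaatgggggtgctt
Irgm1, chr11:48871421-48871670, minus strand: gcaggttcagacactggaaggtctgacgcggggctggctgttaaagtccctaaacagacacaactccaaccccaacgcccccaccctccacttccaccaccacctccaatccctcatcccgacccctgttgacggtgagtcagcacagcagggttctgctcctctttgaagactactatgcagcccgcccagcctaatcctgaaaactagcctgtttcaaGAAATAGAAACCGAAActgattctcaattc
Ctss, chr3:95526536-95526785, plus strand: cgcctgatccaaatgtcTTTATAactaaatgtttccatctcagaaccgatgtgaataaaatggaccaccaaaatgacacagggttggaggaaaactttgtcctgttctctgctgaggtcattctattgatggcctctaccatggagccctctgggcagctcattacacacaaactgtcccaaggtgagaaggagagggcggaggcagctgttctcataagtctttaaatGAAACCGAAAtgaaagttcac
Dusp1, chr17:26508473-26508722, minus strand: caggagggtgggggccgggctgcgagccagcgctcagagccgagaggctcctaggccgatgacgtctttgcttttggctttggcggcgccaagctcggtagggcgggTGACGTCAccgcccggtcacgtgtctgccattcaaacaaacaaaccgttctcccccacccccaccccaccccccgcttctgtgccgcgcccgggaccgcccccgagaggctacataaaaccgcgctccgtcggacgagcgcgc

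In the Irgm1 window the interferon element core matched at 30 to 21 bases before the start and again, overlapping, at 24 to 15. In the Ctss window it matched at 21 to 12 bases before the start, and TATAAA matched on the opposite strand at 233 to 228. The Dusp1 window held TGACGTCA at 143 to 136 bases before the start, and the Gfap window held none of these letters. Among 32851 promoter windows of the same length, 2.98% held the interferon element core, 7.02% TTCNNNGAA, 1.55% TGACGTCA and 12.4% TATAAA. These matches describe sequence and were not tested as sites.

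Gfap encodes the main intermediate filament protein of astrocytes. Its signal was 5403, 5020.2 and 6436 in control 1 to 3, 13823, 10957 and 12077 in METH 1 to 3 and 13596, 11350.3 and 12025 in MPTP 1 to 3. All 6 toxin arrays lay above all 3 control arrays, and the lowest toxin array was well above the highest control. Gfap rose 2.19-fold, from 5619.9 ± 733 (SD, n = 3) to 12305 ± 1169 (SD, n = 6), a log2 fold change of 1.13 ± 0.10 (SE) with a 95% interval of 0.90 to 1.36 and adjusted p = 0.0029 in limma. An exact two-sided permutation test over the 84 ways to choose 3 of 9 arrays gave p = 0.0238, the smallest value it can give. Every gene with all 6 toxin arrays on 1 side of control gets this unadjusted value, which was 4.51% of the genes tested. A second Gfap probe set read 1930.1, 2293 and 2366 in control, 6022, 4991 and 4964 in METH and 6039, 4994 and 4723 in MPTP, a log2 fold change of 1.27.

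The METH and MPTP comparisons share the 3 control arrays, so their values are given side by side only. Gfap had a log2 fold change of 1.13 in METH and 1.14 in MPTP. METH minus MPTP, a contrast that does not use the control arrays' level, was -0.01 with an interval of -0.29 to 0.28 and adjusted p = 0.999 in limma. A difference between the toxins within that interval is not excluded by these arrays.

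**Figure D1:**
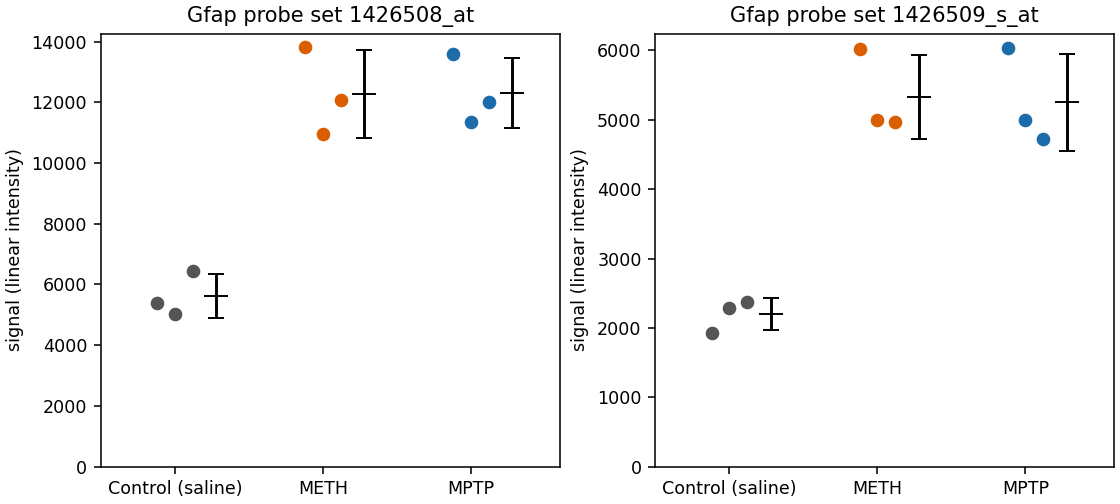
Linear signal of Gfap (y axis) on each of the 9 arrays by group (x axis) for its probe sets, with points for arrays, a line for the group mean and bars of 1 SD (n = 3). The 6 toxin arrays read 10957 to 13823 on the brighter probe set, all above the 3 control arrays at 5020.2 to 6436.

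Across the genome this was 1 of 7964 genes past an adjusted p of 0.05 in limma (0.0126%), with 0 genes lower. An unadjusted p under 0.05 was reached by 725 genes (9.1%), of which 443 were higher (5.56%) and 282 lower (3.54%). The direction of that split moved with both the scaling and the brightness filter: 61.1% were higher with the deposited values, 49.6% after quantile normalization, 48.4% after cyclic loess, 33.5% after median centring of each array, 67.8% with no filter and 49.4% with a filter at the 60th percentile. All 6 toxin arrays lay above all control arrays for 185 genes (2.32%) and below for 174 (2.18%). Over all genes tested, 51.3% had a log2 fold change above 0 and the median was 0.0041. The number of arrays limited precision: the median 95% interval reached 0.23 log2 units to either side. The count of genes past the test was 5 without control 3, 3 without METH 3 and 2 without MPTP 2, each including Gfap.

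**Figure D2:**
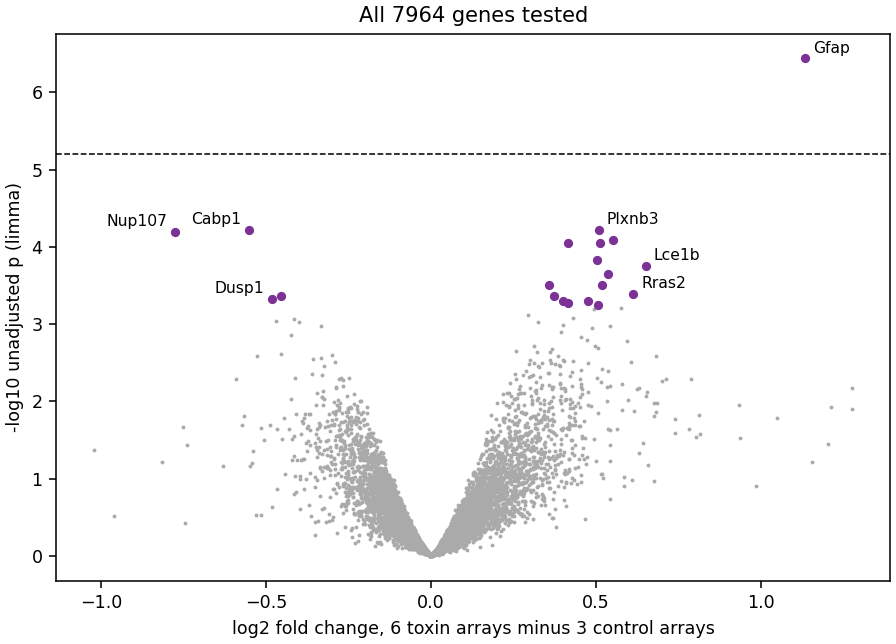
Log2 fold change of both toxins over control (x axis) against -log10 of the unadjusted limma p (y axis) for 7964 genes, 1 point each, with the 20 genes of smallest p in purple, some labelled, and a dashed line at the p that a single gene needs to pass after adjustment, 6.28e-06. Gfap at 1.13 stands apart from the cloud, and Nup107 at -0.78 and Plxnb3 at 0.51 are among the next genes by p.

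Beyond Gfap, 19 genes of smallest p were set out by rule, and their adjusted p ran from 0.102 to 0.228, so none passed. Of the 20 including Gfap, 16 were higher and 4 lower in the toxin group. All 20 lay outside the control range on 1 side, which the ranking by p favours and which held for 4.51% of all genes. METH minus MPTP had an unadjusted p under 0.05 in limma for 0 of the 20, against 2.85% of all genes. A difference between the toxins counts as spread in the pooled fit, so the ranking favours this as well. After Gfap the log2 fold changes were 0.36 to 0.78 in size. For 5 of them, Hk2, Lce1b, Ccdc166, Fgd3 and Zfp395, the control mean lay under the brightness limit of 741, so these genes entered the test through their toxin arrays.

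Plxnb3, a receptor for semaphorins made by oligodendrocytes, read 1101, 1195 and 1219.6 in control, 1525, 1585 and 1860.0 in METH and 1711, 1703 and 1631 in MPTP. The groups did not overlap, and the log2 fold change was 0.51 ± 0.08. Abca1, which exports cholesterol to lipoproteins, read 4561, 5173 and 5336 in control, 7926, 7489 and 6592 in METH and 7331, 6789.5 and 6878 in MPTP. Its 3 probe sets had the same sign, and the log2 fold change was 0.51 ± 0.09. Hk2, the hexokinase that starts glycolysis in many growing cells, read 633, 641 and 631 in control, 930.1, 1002 and 771 in METH and 935, 969 and 997 in MPTP. METH 3 lay below the other toxin arrays but still above control, and the log2 fold change was 0.55 ± 0.09. Without METH 3 it was 0.60 with adjusted p = 0.0168 in limma, and over the 21 alternatives adjusted p ran from 0.0168 to 0.341.

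Rras2, a small GTPase of the Ras family, read 1570.3, 1436 and 1562 in control, 2610.3, 2444 and 2176 in METH and 2268, 1817 and 2785 in MPTP, a log2 fold change of 0.61 ± 0.12. The toxin arrays spread widely, with MPTP 2 nearest to control. Ell, an elongation factor of RNA polymerase II, had a log2 fold change of 0.41 ± 0.07, and Polr2i, a subunit of that polymerase, 0.42 ± 0.09. Aldh4a1, a mitochondrial enzyme of proline breakdown, had 0.37 ± 0.07. Sgpl1, the lyase that breaks down sphingosine phosphate, had 0.36 ± 0.07, and its 2 probe sets differed in sign. Fgd3, an exchange factor for Cdc42, had 0.48 ± 0.10, and the zinc finger gene Zfp395 had 0.51 ± 0.11. Prm1, a protamine of sperm chromatin, and Lce1b, a protein of the cornified skin, had 0.50 ± 0.09 and 0.65 ± 0.12, both from dim signals, 652 to 818 and 580 to 589 in control. Ccdc166 had 0.54 ± 0.10 and Cdiptos, annotated opposite to Cdipt, 0.52 ± 0.10.

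Of the 4 lower genes, Nup107, a scaffold protein of the nuclear pore, had the largest difference. It read 1313, 1760.1 and 1496 in control, 826, 803 and 1063 in METH and 956, 760.2 and 929 in MPTP, a log2 fold change of -0.78 ± 0.12. Cabp1, a neuronal calcium sensor that modulates calcium channels, read 2696, 2428 and 2756, 1859, 1699 and 1709.9 and 1745, 2075 and 1678 in the same order, a log2 fold change of -0.55 ± 0.09. Both genes lay below control on all 6 arrays. Dusp1, which switches off MAP kinases, read 6638, 7504 and 7505 in control, 5287, 4928 and 6268 in METH and 5051, 4794 and 4769.9 in MPTP, a log2 fold change of -0.48 ± 0.10. Aldh9a1, an aldehyde dehydrogenase that can make GABA and carnitine precursors, had -0.45 ± 0.09, the same sign on both of its probe sets.

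**Figure D3:**
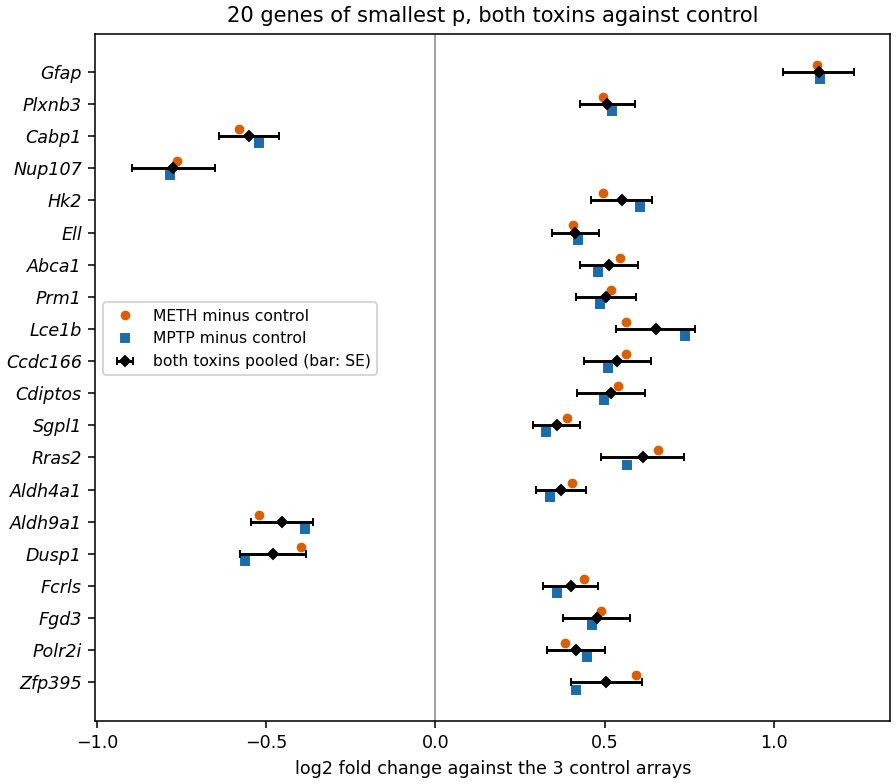
Log2 fold change against control (x axis) of the 20 genes of smallest p (y axis) for METH (circles), MPTP (squares) and both pooled (diamonds, bar 1 SE). Both toxins, which share the control arrays, lie on the same side of 0 for each gene, with pooled values up to 1.13 for Gfap and down to -0.78 for Nup107.

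**Figure D4:**
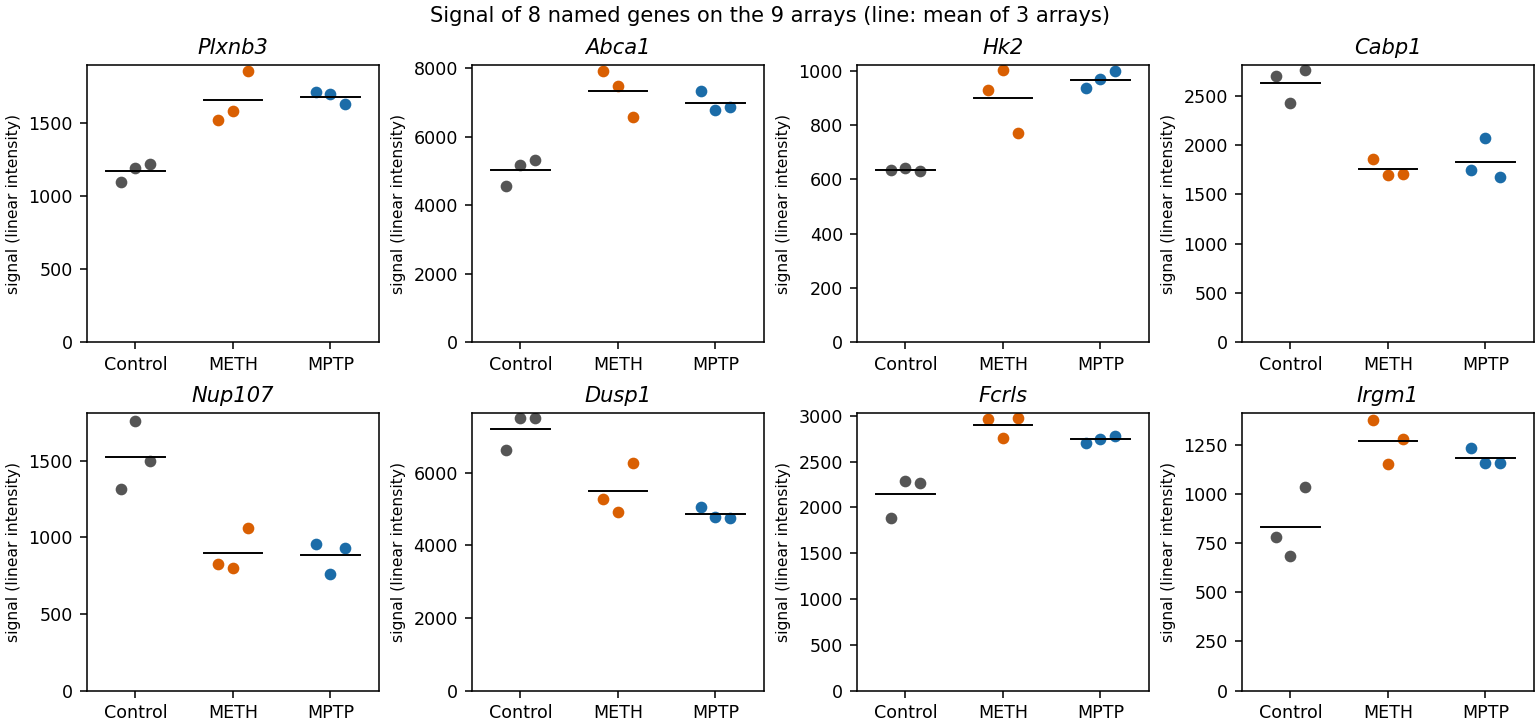
Linear signal (y axis, from 0) of 8 genes on the 9 arrays by group (x axis), points for arrays and lines for means of 3. Plxnb3, Abca1, Hk2, Fcrls and Irgm1 are higher and Cabp1, Nup107 and Dusp1 lower on all 6 toxin arrays than on any control array.

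Gene groups were described next by how many members had a log2 fold change above 0, the median, and the count at an unadjusted p under 0.05, to be read against 51.3%, 0.0041 and 9.1% over all genes. Apart from Gfap, no member of any of the 39 lists passed at an adjusted p in limma. A list score is the mean over its tested genes of the log2 deviation from the 9-array mean.

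Of the reactive astrocyte genes, 9 of 23 on the array were bright enough to test. Of these 7 were above 0 and the median was 0.23, with 3 higher and 1 lower at the unadjusted threshold. The median was 0.10 without control 1, 0.13 without METH 2 and 0.10 without MPTP 2. Vim, another intermediate filament gene of reactive astrocytes and vessels, read 3244, 3204 and 3201 in control, 4787, 4497 and 3799.8 in METH and 4564, 4071 and 3352 in MPTP, a log2 fold change of 0.37 ± 0.11 (adjusted p = 0.431 in limma). The 6 toxin arrays lay above control, MPTP 3 only slightly. Cp, the copper carrier ceruloplasmin, went the other way with -0.75 ± 0.28, and its arrays overlapped control. Among 21 genes of resting astrocyte function, 13 were above 0 with a median of 0.12, and 4 were higher at the unadjusted threshold. Without control 1 this median was 0.0027, close to that of all genes. Aqp4, the water channel of astrocyte endfeet, read 5359, 5048 and 5247 in control and 6228 to 6699 (median 6369.6) in the toxin group, a log2 fold change of 0.30 ± 0.06. Kcnj10, their potassium channel, had 0.31 ± 0.09, Clu, the secreted chaperone clusterin, 0.26 ± 0.07, and Apoe, their main apolipoprotein, 0.24 ± 0.08. Below 0 lay 8 of the 21 genes, the lowest at -0.25. The glutamate transporter gene Slc1a2 had -0.02 ± 0.13, with an interval of -0.31 to 0.28. The difference in Gfap against that in other astrocyte genes was not tested.

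Microglial and macrophage genes were a list whose score lay above control on all 6 toxin arrays with the deposited values and under each of the 3 other scalings. Of 30 tested, 26 were above 0, the median was 0.20, and 12 were higher and 0 lower at the unadjusted threshold. All 6 toxin arrays lay above control for 7 of the 30, against 2.32% of all genes tested. The score ran from -0.25 to -0.03 in control and from 0.03 to 0.13 in the toxin group. Fcrls, a microglial Fc receptor-like gene, read 1885, 2288 and 2264 in control, 2968, 2760.5 and 2973 in METH and 2702, 2746 and 2783 in MPTP, a log2 fold change of 0.40 ± 0.08. Ctss, cathepsin S, read 8041, 6642 and 6762 in control and 8349.6 to 10380.1 (median 9499) in the toxin group, 0.39 ± 0.09. Ly86, a partner of a toll-like receptor homologue, read 2514, 2052 and 2916 in control and 2998 to 4215 (median 3470.0) in the toxin group, 0.52 ± 0.14. The microglial marker Aif1, whose control mean lay under the brightness limit, had 0.20 ± 0.13 with arrays that overlapped.

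Related immune groups overlapped with this list in their members. Of 9 complement genes tested, 8 were above 0 with a median of 0.19, and 3 were higher at the unadjusted threshold. These 3 were C1qa, C1qb and Clu, which was also counted among the genes of resting astrocyte function. C1qa and C1qb, chains of the first complement component, had 0.20 ± 0.07 and 0.19 ± 0.08. C1qb was 0.12 without control 3, and 1 of its 3 probe sets past the filter had the opposite sign. Of 25 lysosomal and phagocytic enzymes, 21 were above 0 with a median of 0.07, and 4 were higher and 0 lower at the unadjusted threshold in limma. The median was 0.045 without MPTP 2. Their score lay above control on all 6 arrays with the deposited values, but not after median centring, where the median was 0.02. Ctsh and Ctsz, lysosomal cathepsins, had 0.54 ± 0.15 and 0.41 ± 0.13, and Lyz2, the macrophage lysozyme, 0.50 ± 0.14. Ctsh was 0.33 without control 2 and Ctsz 0.27 without control 1, and 1 of the 3 Ctsz probe sets past the filter had this sign.

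Of 35 interferon-responsive genes on the array 16 were bright enough to test. Of these 14 were above 0, the median was 0.19, and 4 were higher at the unadjusted threshold. The score lay above control on all 6 arrays with the deposited values and overlapped control under the 3 other scalings. Irgm1 read 782, 684 and 1037 in control, 1376, 1153 and 1279 in METH and 1236, 1157 and 1160.2 in MPTP, or 0.58 ± 0.12 as a log2 fold change (adjusted p = 0.232 in limma). Control 3 was the control nearest to the toxin arrays, and without it the value was 0.74 with adjusted p = 0.043 in limma, against 0.043 to 0.459 over the alternatives. Irf1, a transcription factor of interferon responses, read 995, 1446 and 1812 in control and 1725 to 2817 (median 2098) in the toxin group, 0.62 ± 0.19. Its control 3 lay within the toxin range, and without control 1 the value was 0.39. Rsad2, the antiviral enzyme viperin, had 0.35 ± 0.12.

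Blood and vessel markers were measured beside these groups. Hbb-b2, a beta globin, read 776, 423 and 692 in control and 795 to 1173 (median 945) in the toxin group, a log2 fold change of 0.63 ± 0.19. Its control mean lay under the brightness limit, so it entered through the toxin arrays, and without control 2 the value was 0.37. Of the 4 blood genes tested 3 were above 0 with a median of 0.19 (0.10 to 0.36 with METH 2 or 1 of the controls left out) and 1 higher at the unadjusted threshold, and their summed signal was 4078 to 5350 in control and 4474 to 6260 in the toxin group. Of 24 vessel genes 8 were above 0 with a median of -0.07, 1 was higher and 2 lower at the unadjusted threshold, and their summed signal was 97568 to 101994 against 91275 to 105700. Cd34 and Acta2, of endothelium and of vessel smooth muscle, had -0.29 ± 0.09 and -0.35 ± 0.12, while Sparc, a matrix protein, had 0.37 ± 0.13. Choroid plexus genes varied widely within every group: Ttr read 65370.4, 34984 and 11543 in control, 43941, 50423 and 8555 in METH and 33342, 2853 and 7142 in MPTP. On that list 2 of 5 genes tested were above 0 with a median of -0.39 and 2 were lower at the unadjusted threshold, and their summed signal was 16724 to 70789 against 7360 to 56104. Ace and Igfbp2 of that list had -0.39 ± 0.14 and -0.49 ± 0.18. The part of blood, vessel, choroid plexus and cortical content in the immune and astrocyte values was not tested.

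Of 23 oligodendrocyte and myelin genes, 20 were above 0 with a median of 0.10, and 4 were higher at the unadjusted threshold. Leaving out control 1 gave a median of 0.042, and leaving out control 2 gave 0.17. The list's score overlapped control. Sox10, the transcription factor of the oligodendrocyte lineage, read 3033, 3398 and 3037 in control, 5057, 5160.0 and 4517 in METH and 4227, 3709.9 and 4038 in MPTP, a log2 fold change of 0.49 ± 0.11. METH minus MPTP for Sox10 was 0.30 (0.08 to 0.52), with an unadjusted p of 0.012 and adjusted p = 0.999 in limma. Cldn11, the tight junction protein of myelin, had 0.26 ± 0.07, while Mbp, a main protein of compact myelin, had 0.02 ± 0.09, with 4 of its 8 probe sets past the filter on either side of 0. Among 10 precursor genes 5 were above 0 with a median of 0.0084, and the 1 at the unadjusted threshold, Vcan, a matrix proteoglycan, had -0.25 ± 0.10.

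Neuronal and dopamine genes were described in the same way, and of 6 dopamine neuron genes tested 3 were above 0 with a median of 0.04 and 1 higher at the unadjusted threshold. Th, which makes the dopamine precursor in midbrain neurons and reaches the striatum only as sparse RNA, read 1542, 1151 and 1057 in control, 1201, 1546 and 1095 in METH and 1092, 1215 and 1078 in MPTP. The groups overlapped, and the log2 fold change was -0.05 with an interval of -0.36 to 0.27. Ddc, the next enzyme of dopamine synthesis, also made in other cells, read 1502, 1044 and 1104 in control and 1357 to 1932 (median 1648) in the toxin group, 0.45 ± 0.13. Control 1 lay within the toxin range for Ddc. The dopamine transporter gene Slc6a3 was too dim to test. Of 30 genes common to spiny neurons 13 were above 0 with a median of -0.02 and 0 reached the unadjusted threshold in limma. Ppp1r1b, the dopamine-regulated phosphatase inhibitor, had -0.03 ± 0.09. Drd2 had -0.15 ± 0.09, and the peptide genes Penk and Pdyn had -0.05 ± 0.08 and -0.06 ± 0.13. Of 6 direct-pathway genes 2 were above 0 with a median of -0.08 (-0.032 without control 1, -0.039 without METH 2 and -0.16 without control 3), and 2 were lower at the unadjusted threshold. These were Tac1, the substance P precursor, at -0.24 ± 0.09, and Sfxn1, a mitochondrial serine carrier, at -0.24 ± 0.08, whose 2 probe sets past the filter differed in sign. The transcription factors Zfp521 and Isl1 of that list had 0.15 ± 0.11 and 0.08 ± 0.15.

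Presynaptic genes were mostly below 0. Of 30 tested 6 were above 0 with a median of -0.08 (-0.12 without control 2), and 8 were lower and 1 higher at the unadjusted threshold. The list's score overlapped control, and 11 of the 30 were above 0 after quantile and 10 after cyclic loess normalization. Cplx2 and Unc13a, which control vesicle fusion, had -0.28 ± 0.09 and -0.29 ± 0.12. Sypl, a synaptophysin-like gene also made outside neurons, was the 1 higher member with 0.24 ± 0.07, and without control 1 another of its probe sets was the brightest, at -0.011. Nrgn, a calmodulin-binding protein of cortical and striatal dendrites, had -0.33 ± 0.09. It belongs to the cortical glutamatergic neuron list, where 3 of 11 genes tested were above 0 with a median of -0.11. Nrgn was the 1 lower member at the unadjusted threshold. The list's summed signal was 83037 to 87248 in control and 70593 to 80308 in the toxin group, without overlap, while its score overlapped control. Of 30 immediate early genes 9 were above 0 with a median of -0.13 (-0.071 without control 3 and -0.078 without MPTP 2), and 1 was higher and 3 lower at the unadjusted threshold. Fos read 4679, 6583 and 6152 in control, 5127, 4597 and 5007 in METH and 4057, 4145 and 3909 in MPTP, a log2 fold change of -0.37 ± 0.13, with METH 1 and METH 3 inside the control range. Ier3 went the other way with 0.32 ± 0.12. The list's median was -0.04 in METH and -0.20 in MPTP, against the same controls.

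Genes of the respiratory chain were mostly below 0 by small amounts. Of 34 complex I subunits 4 were above 0 with a median of -0.09, and their score overlapped control. At the unadjusted threshold 5 were lower, among them Ndufb7 at -0.26 ± 0.09, Ndufb2 at -0.18 ± 0.07 and Ndufa1 at -0.18 ± 0.07. Of 41 genes of complexes II to V and cytochrome c 7 were above 0 with a median of -0.10. At the unadjusted threshold 1 (2.44%) was lower, against 3.54% lower over all genes. Their score ran from 0.03 to 0.09 in control and from -0.08 to 0.03 in the toxin group, below control on all 6 arrays, but it overlapped control after quantile and after cyclic loess normalization. Cycs, cytochrome c, read 24518, 24288 and 26282 in control and 19514 to 23012 (median 21326) in the toxin group, -0.22 ± 0.08. Atp5e and Atp5j2, subunits of ATP synthase, had -0.23 ± 0.11 and -0.15 ± 0.07, and Atp5e was -0.11 without control 1.

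Detoxifying and lipid genes gave mixed values. Of 26 antioxidant genes 12 were above 0 with a median of -0.03, and 4 were lower at the unadjusted threshold, including the glutathione transferase Gstm1 at -0.27 ± 0.08, the lipid peroxide enzyme Gpx4 at -0.24 ± 0.09 and Mgst3 at -0.20 ± 0.08. Of 14 genes of the sterol-sensing LXR receptors 8 were above 0 with a median of 0.02 and 4 higher at the unadjusted threshold, with Lpcat3, a phospholipid remodelling enzyme, at 0.43 ± 0.13. Lpcat3 read 2530.0, 2700.0 and 2251 in METH and 1746, 2048 and 2020.5 in MPTP against 1709.8, 1589 and 1591 in control, and METH minus MPTP was 0.36 (0.13 to 0.59), with unadjusted p = 0.0056 and adjusted p = 0.999 in limma. Of 17 cholesterol synthesis genes 13 were below 0 with a median of -0.10 and 2 lower at the unadjusted threshold, with Msmo1 at -0.22 ± 0.09, Hmgcs1 at -0.27 ± 0.11 and Sqle at -0.27 ± 0.12. Hspa1b, an inducible heat shock protein, read 335, 511 and 1428 in control, 3031, 2026 and 1525 in METH and 1000.1, 626 and 1515 in MPTP, a log2 fold change of 1.20 ± 0.50. Both groups spread widely, the control mean lay under the brightness limit, and the value was 0.75 without control 1. METH minus MPTP for Hspa1b was 1.10 (-0.01 to 2.21), with adjusted p = 0.999 in limma. Of 20 apoptosis regulators 13 were above 0 with a median of 0.06, and 0 were higher and 3 lower at the unadjusted threshold in limma. The pro-survival genes Bcl2l1 and Bcl2l2 had -0.28 ± 0.11 and -0.20 ± 0.09, while Bcl2 and Xiap, also pro-survival, had 0.23 ± 0.17 and 0.13 ± 0.09. Of 37 proteasome genes 10 were above 0 with a median of -0.06, and 1 was higher, Psmd13 at 0.25 ± 0.09, and 1 lower, Psmb3 at -0.20 ± 0.09. Without control 1 Psmb3 was -0.12, and without control 2 Psmd13 was 0.16. The glycolytic Pfkp had -0.18 ± 0.07, and 7 of 18 genes of that pathway were above 0 with a median of -0.04. The RNA-editing enzyme Adarb1 had 0.49 ± 0.10 on its brightest probe set. For Adarb1, Bcl2l2, Psmd13, Psmb3 and Pfkp the 2 probe sets past the filter differed in sign, as did 1 of 3 for Bcl2l1 and 1 of 4 for Gstm1. The microRNA export receptor Xpo5 had 0.27 ± 0.12, and the calcium sensor Ncald -0.41 ± 0.19, or -0.26 without control 1 and -0.66 without control 2. Of 15 neuronal calcium sensor genes tested 9 were above 0 with a median of 0.03, and 0 were higher and 1 lower at the unadjusted threshold.

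Nuclear pore genes pointed both ways: 14 of 24 were above 0 with a median of 0.02, with 3 higher and 3 lower at the unadjusted threshold. Nup85 belongs to the same pore scaffold as Nup107 and had 0.36 ± 0.12, opposite in sign, but its arrays overlapped control and without control 2 the value was 0.22. Pom121, a membrane protein of the pore, read 4030.5, 4482 and 3944 in control, 12179, 11966 and 13609.6 in METH and 15118, 3413 and 10044 in MPTP. MPTP 2 lay below all control arrays and the other toxin arrays read 10044 or more, so the log2 fold change was 1.28 ± 0.38 over all arrays and 1.59 ± 0.13 without MPTP 2, with adjusted p = 0.0016 in limma against 0.0016 to 0.607 over the alternatives.

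**Figure D5:**
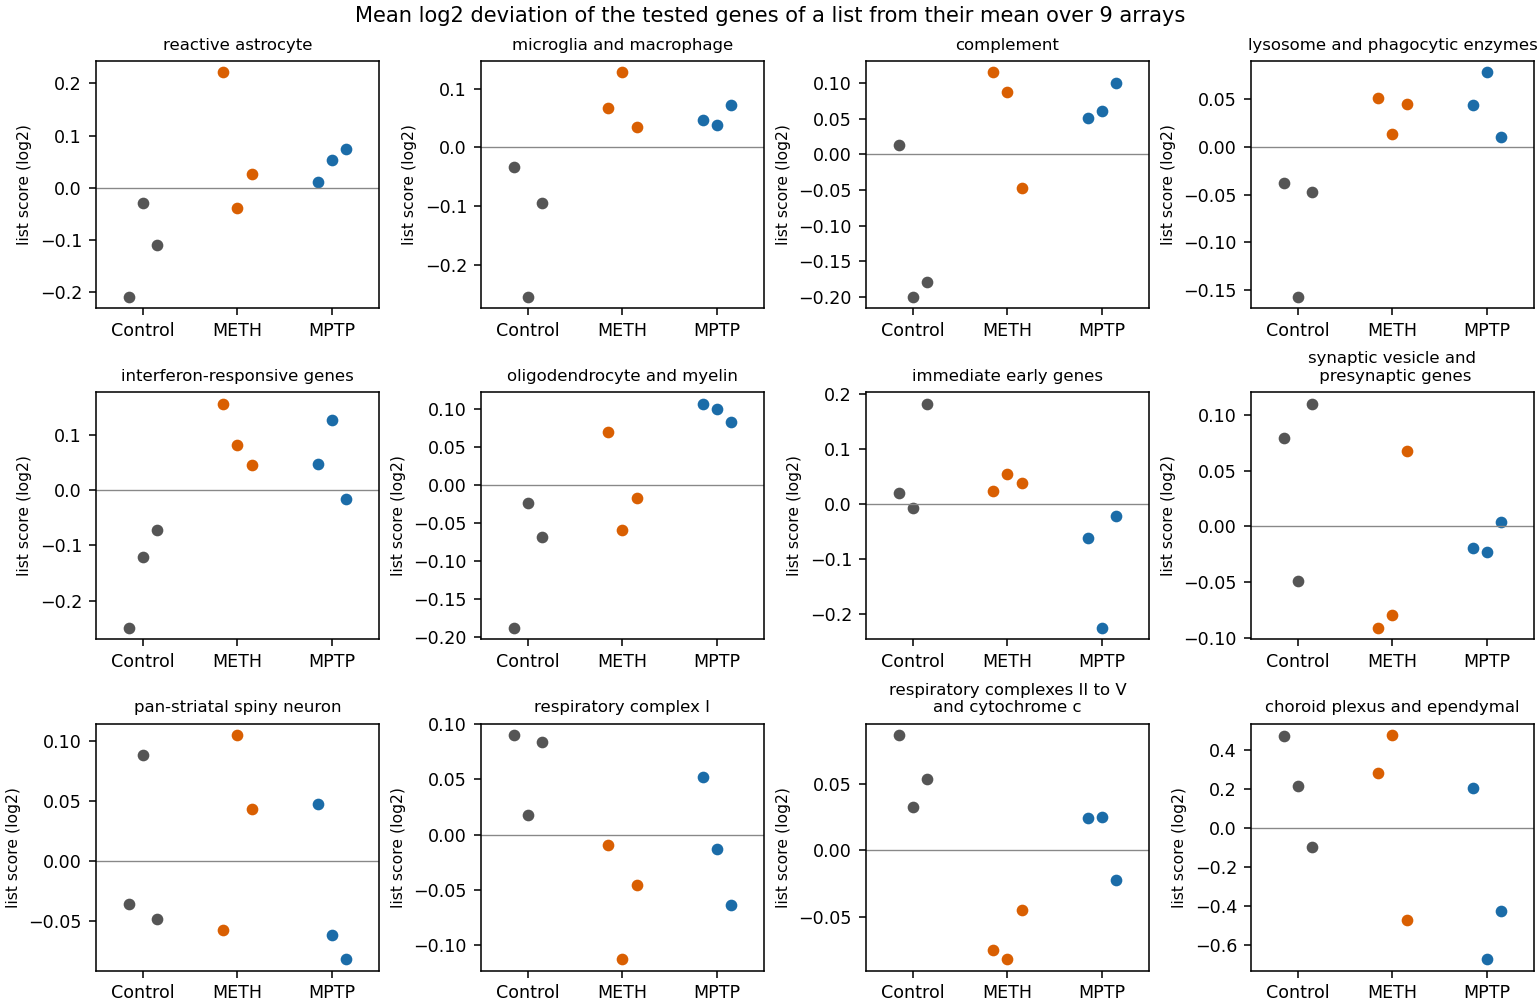
List scores (y axis, mean log2 deviation from the 9-array mean) on each array by group (x axis) for selected gene lists, 1 panel each. Microglial genes run from 0.03 to 0.13 in the toxin group against -0.25 to -0.03 in control.

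With both toxins as separate groups, METH minus MPTP passed for 0 of 7964 genes in limma (0%), and 227 (2.85%) had an unadjusted p under 0.05. This count does not show that the toxins act alike, with 3 mice for each.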

How the data were processed

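RNA of 9 striata was measured on single-colour Affymetrix mouse arrays. The deposited values are linear intensities, 0.342 to 84013, for 22690 probe sets. Per the submitters' processing notes the tool was RMA, of unstated version, but the deposited intensity values lack its usual log scale, so how the authors summarised a probe set is unsettled. The annotation that matched the values is of a smaller array than the design text names.

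Intensities were taken to log2 as deposited, without further normalization or pseudocount. Of the probe sets, 20380 had 1 gene symbol, 691 several, 1555 none, and 64 were array controls. Of the symbols, 20351 were found in a RefSeq table of GRCm38.p6. Probe sets under the 40th percentile of mean log2 value (9.53, a signal of 741) did not enter, and the brightest probe set stood for its gene. The 6 toxin arrays were compared with the 3 control arrays in limma 3.58.1 (R 4.3.3; lmFit, eBayes; 7 residual and 3.9 prior degrees of freedom), two-sided, with Benjamini-Hochberg adjustment over 7964 genes. METH minus MPTP came from a fit with 1 mean per group. Values after ± are SE unless named as SD. The code was tested on simulated data.

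The named genes were those past the test or the 20 of smallest p, up to 3 of smallest p in each of 39 lists, and a fixed set of dopamine, glial and spiny neuron genes. A few further genes were chosen after their values were seen: Bcl2, Xiap, Zfp521, Isl1, Timp2, Zbtb7b, Oas1b and Pramel25. Members and lists were chosen with earlier results of these data known. Alternatives were other scalings, filters, probe set rules, fits, a replicate block and leaving out each array.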

Additional observations from a re-analysis of the deposited data

Results flagged for a closer look

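Of 130 values checked (91 genes and 39 list scores), 12 had 1 array of the 6 toxin arrays far from the others, with a gap to its nearest neighbour that, as a share of the whole range on the log2 scale, exceeded Dixon's 95% critical value. Chance alone flags about 1 in 20 such groups. METH 2 was the array in 6 of the 12. It was the highest for Zfp395 (0.746 of the range), Ctsh (0.630), Rsad2 (0.681), Ier3 (0.662) and Th (0.669), and the lowest for Atp5j2 (0.637). METH 2 also had the highest array median, 1233, and the narrowest spread, 6.25 log2 units between the 10th and 90th percentiles. MPTP 1 was the highest for Sqle (0.673) and Bcl2l1 (0.698). METH 1 was the highest for Isl1 (0.692). METH 3 was the lowest for Hk2 (0.717), MPTP 3 for Drd2 (0.757) and MPTP 2 for Pom121 (0.725). The Pom121 gap was the widest in signal, with MPTP 2 at 3413 and the next toxin array at 10044. For Isl1 the 3 METH arrays lay above the control mean and the 3 MPTP arrays below it. METH minus MPTP was 0.31 (-0.04 to 0.65), with adjusted p = 0.999 in limma, so this difference did not pass. The part of these single arrays in the pooled values was not tested beyond leaving each out in turn.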

How the results depend on the processing

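Gfap passed in all 21 alternatives (log2 fold change 1.06 to 1.23, adjusted p 0.00012 to 0.0431 in limma). The count of genes past the test, 1, became 3 with no filter, adding Oas1b and Pramel25, and 2 of 13584 with probe sets not collapsed, both Gfap, an alternative chosen after seeing the data. Leaving out 1 array gave 1 to 5 genes. Deviations from the group means of same-numbered arrays of different groups correlated at -0.15 to 0.05 in 9 pairs, against -0.10 to 0.11 in the 18 other pairs. Whether the numbers paired the mice cannot be told from these values, because deviations from means of 3 arrays are not independent. With the replicate block the count was 1, with Gfap at 1.13 (adjusted p = 0.0050) and 675 genes at an unadjusted p under 0.05. Of 1855 values for 90 other genes, 5 passed that had not, each with 1 array left out (Ccdc166, Irgm1, Hk2, Lce1b and Pom121), and 24 changed sign, all from values that had not passed. Under quantile and cyclic loess normalization Penk became 0.014 and 0.020 and Ppp1r1b 0.028 and 0.031. Mbp became -0.036 with median centring and -0.013 with array weights, under which Th became 0.031 and Pdyn 0.022. With the mean of all probe sets Pfkp became 0.0053 and Bcl2l2 0.18, and Psmd13 became -0.092 without shared probe sets. With each array left out in turn, values spanned 0 for Mbp (-0.039 to 0.056), Ppp1r1b (-0.12 to 0.064), Th (-0.16 to 0.12), Pdyn (-0.13 to 0.013), Slc1a2 (-0.076 to 0.063), Isl1 (-0.036 to 0.16), Sypl (-0.011 to 0.27) and Adarb1 (-0.30 to 0.56); for Sypl and Adarb1 another probe set became the brightest. The cause of the other turns was not tested. List medians moved beyond their spread in 55 of 819 values. With 1 array left out those of the vessel, dopamine, apoptosis, LXR, nuclear pore, oligodendrocyte precursor and pan-striatal spiny neuron lists crossed 0. So did those of the glucocorticoid-responsive, glutamate receptor, heat shock chaperone and microRNA processing lists. Dim probe sets and 3 control arrays limit what can be seen.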

Other observations

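Some genes passed only under another setting, and their values are given here without explanation. Oas1b, an interferon-induced gene of the oligoadenylate synthetase family, was too dim for the filter. It read 270, 235 and 243 in control, 722, 610 and 696 in METH and 660.5, 624 and 575 in MPTP, which without the filter gave 1.38 ± 0.09 on the log2 scale (adjusted p = 0.0024 in limma). The groups did not overlap, and all 6 toxin arrays were higher. Pramel25, a gene of the Prame-like family, was listed at 39.1 to 43.4 in control and 3 to 7.2 in the toxin group, signals near the floor of the array, with adjusted p = 0.0082 under the same setting.

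Control 3 resembled the toxin arrays for 2 genes that passed without it. Timp2, an inhibitor of matrix metalloproteinases, read 9541, 10303 and 20560 in control 1 to 3 and 18282 to 22626 in the toxin group. Without control 3 its log2 fold change was 1.05 (adjusted p = 0.0059 in limma), and with it 0.70 (adjusted p = 0.431). Zbtb7b, a zinc finger transcription factor, read 260, 451 and 1387 in control and 1038 to 1725 in the toxin group, with 1.88 without control 3 (adjusted p = 0.0312 in limma) and 1.21 with it (adjusted p = 0.454).

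Within the toxin groups, same-numbered METH and MPTP arrays read close to each other for Gfap, a pattern seen after the values were examined and not tested. Arrays 1 read 13823 and 13596, arrays 2 read 10957 and 11350.3, and arrays 3 read 12077 and 12025. On the second probe set the pairs were 6022 and 6039, 4991 and 4994, and 4964 and 4723. Over all genes, deviations from the group means of same-numbered METH and MPTP arrays correlated at -0.08, -0.15 and -0.11 for arrays 1 to 3. Such deviations are not independent, so whether the likeness extends to other genes cannot be told from them.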
